A study of Mus musculus with 36 samples.

Results

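Interferon-stimulated genes, the genes that cells switch on when they receive an interferon signal, were followed in plasma cells of mouse models of multiple myeloma. The set is a list of 41 named genes of the 54203 in the annotation, and the reads of all transcripts of a gene were summed in every library. The study sequenced 36 samples of 2000 cells each, sorted as plasma cells from the bone marrow of C57/BL6 mice on CD138 and TACI, with a reporter given in brackets by the submitters. Cohort D held Control(D), Ccnd1 (a transgene for cyclin D1), Ikk2ca(D) (a transgene for the NF-kB activating kinase IKK2, in the form labelled Ikk2ca) and Ccnd1-Ikk2ca, which carried both. Cohort M held Control(M), MMSET (a transgene for the histone methyltransferase NSD2), Ikk2ca(M) and MMSET-Ikk2ca, which carried both. Controls and single transgenic groups had 4 libraries each and both double transgenic groups had 6. The promoters or Cre lines that drive the transgenes, the alleles of the control mice, the age of the mice and whether each library came from a separate mouse are not given in the sources used here. P-values therefore measure only the spread between these libraries.

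Type I and type III interferons are secreted proteins made after a cell senses foreign or misplaced nucleic acid, while interferon gamma comes mainly from T and NK cells. Their receptors activate the kinases JAK1, JAK2 and TYK2, which phosphorylate transcription factors such as STAT2. A complex that holds STAT2 and IRF9 binds the interferon-stimulated response element (ISRE), and interferon gamma acts through the gamma-activated site (GAS). The genes that follow encode nucleic acid sensors, antiviral effectors, the ubiquitin-like protein ISG15 with its enzymes, chemokines, and more of the same transcription factors. Several of them also have NF-kB sites, and bulk RNA does not tell which factor acted.

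Each library held 54.1 to 97.6 M reads, of which 43.9% to 73.0% came from immunoglobulin genes. Levels are counts per M reads (CPM), scaled over all 36 libraries, and log2 fold changes come from 1 fit per cohort. The targeted genes were read as a check of the labels. Ccnd1 stood at 258 to 381 CPM in Ccnd1 and 281 to 983 in Ccnd1-Ikk2ca. Nsd2 stood at 427 to 824 CPM in MMSET and 174 to 605 in MMSET-Ikk2ca. Ikbkb stood at 50.4 to 71.9 CPM in Ikk2ca(M) against 16.2 to 34.2 in Control(M). Control levels of Ccnd1 and Nsd2, and Ikbkb in the other groups with Ikk2ca, are not given here. Transgene and endogenous transcripts were not separated. All 8 plasma cell markers were detected in every group. Xist, the RNA of the inactive X chromosome, was above 10 CPM in 1 of 4 Control(D), 2 of 4 Ccnd1, 4 of 4 Ikk2ca(D), 3 of 6 Ccnd1-Ikk2ca, 2 of 4 Control(M), 3 of 4 MMSET, 4 of 4 Ikk2ca(M) and 3 of 6 MMSET-Ikk2ca libraries, so this class was not balanced over the groups. The MMSET library of replicate 1 stood apart with a summed neutrophil marker level of 2477 CPM, against 0.744 to 1392 in the other libraries. In all these bulk samples, fewer cells of a type and less RNA per cell cannot be told apart.

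In the controls the set was led, per transcript length, by a few genes. Isg20, an exonuclease that degrades single-stranded RNA, stood at 53.1 ± 16.4 TPM (mean ± SD) in Control(M) and 32.5 ± 8.87 in Control(D). Bst2, or tetherin, which holds budding virus particles at the cell surface, stood at 30.4 ± 10.7 and 44.6 ± 2.99 TPM. Zbp1, a sensor of Z-form nucleic acids that can start necroptosis, stood at 28.4 ± 8.53 and 15.9 ± 1.12 TPM. The GTPase gene Mx2 and the viperin gene Rsad2 had 0 reads in all 4 Control(M) libraries, which allows up to 0.0416 to 0.05004 reads per M reads, depending on the depth of the library. Ifi44 had 0 reads in Control(D) and 9 in Control(M). In MMSET-Ikk2ca Isg20 led with 152 ± 53.3 TPM, followed by Ifitm3 with 112 ± 86.2 and Lgals3bp with 102 ± 28.2, and the SDs of these 3 overlap.

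**Figure D1:**
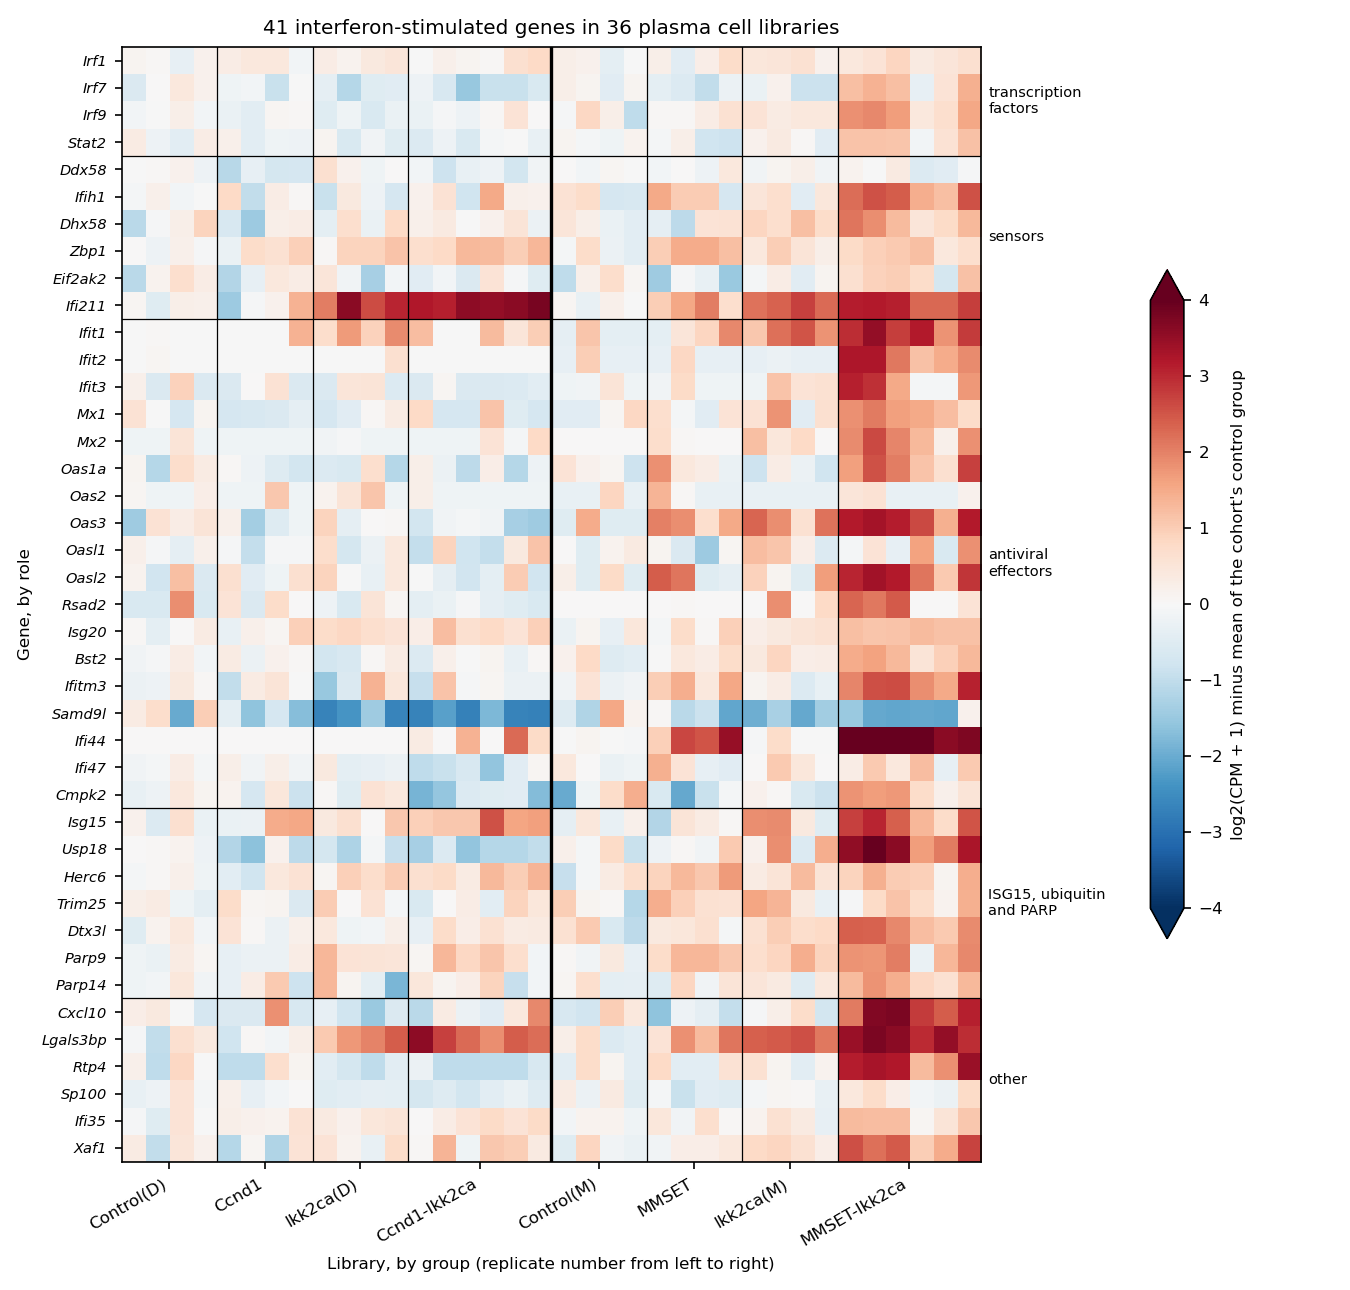
Each row is 1 of the 41 genes, ordered by role, and each column is 1 of the 36 libraries, ordered by group and replicate. Colour gives log2(CPM + 1) minus the mean of the cohort's control group, and values beyond 4 share the end colours. The 6 MMSET-Ikk2ca libraries at the right are above the control mean for most genes, and Ifi211 and Lgals3bp are also high in Ikk2ca(D), Ccnd1-Ikk2ca and Ikk2ca(M).

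Promoter sequences from RefSeq (GRCm38.p6), each a window around a transcript start, were found for 32 of the 41 genes. The ISRE core, GAAA, any 2 bases and GAAA on either strand, was present in 14 of these 32 and in 3.99% of the 27025 genes in the table. The GAS core, TTC, any 3 bases and GAA, was in 8 of 32 against 9.55%, and the kappa-B core, GGG, any 5 bases and CC on either strand, in 22 of 32 against 53.5%. The first 2 motifs can overlap, and a match describes letters in a window, not a bound site. Of the members with an entry, the ISRE core was in 6 of the 14 called higher in MMSET-Ikk2ca and in 8 of the 18 that were not called. The sequences below show that element, in capitals, in 5 members that differed in how widely they changed: Ifi211 moved in both cohorts, Isg15 in both double transgenic groups, Cxcl10 and Bst2 in MMSET-Ikk2ca, and Ifit1 passed in no comparison. Each is written 5′ to 3′ on the strand of its gene.
Ifi211: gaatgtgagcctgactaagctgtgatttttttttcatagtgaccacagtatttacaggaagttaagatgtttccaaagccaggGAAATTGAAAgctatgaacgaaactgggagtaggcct
Isg15: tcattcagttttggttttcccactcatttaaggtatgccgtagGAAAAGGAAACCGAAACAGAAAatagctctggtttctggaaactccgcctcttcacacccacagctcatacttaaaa
Cxcl10: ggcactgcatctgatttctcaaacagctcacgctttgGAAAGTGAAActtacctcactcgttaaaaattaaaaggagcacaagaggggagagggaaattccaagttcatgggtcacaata
Bst2: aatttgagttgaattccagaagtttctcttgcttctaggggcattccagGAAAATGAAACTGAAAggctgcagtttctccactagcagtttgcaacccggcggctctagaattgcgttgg
Ifit1: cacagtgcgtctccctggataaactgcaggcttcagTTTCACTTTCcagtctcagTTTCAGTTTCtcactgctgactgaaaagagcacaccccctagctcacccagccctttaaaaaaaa
They span chr1:173913047-173913166 (minus strand) for Ifi211, chr4:156200820-156200939 (minus) for Isg15, chr5:92349020-92349139 (minus) for Cxcl10, chr8:71537532-71537651 (minus) for Bst2 and chr19:34640749-34640868 (plus) for Ifit1. Isg15 holds 3 overlapping cores, Bst2 2 overlapping ones and Ifit1 2 separate ones. In Ifit1 the element lies on the opposite strand, so the capitals read as its reverse complement.

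In MMSET-Ikk2ca, 20 of the 41 genes rose against Control(M) and none fell (edgeR quasi-likelihood test, Benjamini-Hochberg adjusted p under 0.05 over 15416 genes). Over all genes of that comparison 3.5% rose and 3.41% fell, 6.91% in all. The median log2 fold change of the 41 was 1.69, also with Mx2 and Rsad2 set to the bound that 3 reads allow, against 0.01 over all genes tested. A positive fold change was found for 39 of 41, against 50.7% of all genes. By role, 3 of 4 transcription factors, 3 of 6 sensors, 5 of 18 antiviral effectors, 5 of 7 genes of the ISG15, ubiquitin and PARP group and 4 of 6 others rose. In 18 of 41 genes every MMSET-Ikk2ca library was above every Control(M) library, where 4.79% of all genes did this, and in none was every library below, against 4.48%. The members were chosen with earlier results of these data known. Here and below, the shares and medians over all genes therefore describe the set and do not test it.

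Among the transcription factors, Irf9, the DNA-binding subunit of the ISRE-binding complex (chr14:55603571-55610030, GRCm38), stood at 17.7, 32.9, 21.7 and 8.59 CPM in Control(M). It had a lowest of 24.98, a median of 58.2 and a highest of 72.3 CPM in MMSET-Ikk2ca (log2 change 1.35 ± 0.323 SE, adjusted p 0.0157), and replicates 4 and 5 lay inside the control range. Stat2, its partner, had 20.2, 17.5, 16.4 and 20.8 CPM in Control(M) and a lowest of 17.4, a median of 41.7 and a highest of 43.7 in MMSET-Ikk2ca (log2 change 0.93 ± 0.268 SE, adjusted p 0.0407). Irf7, which drives interferon alpha genes (chr7:141262706-141266481), had 24.99, 22.4, 15.1 and 22.5 CPM in Control(M) and a lowest of 16.5, a median of 49.6 and a highest of 57.9 in MMSET-Ikk2ca (log2 change 1.03 ± 0.308 SE, adjusted p 0.0497). For both Stat2 and Irf7 the library of replicate 4 was inside the control range, and the other 5 were above it. Irf1, an early activator that also responds to NF-kB, gave 0.53 on the log2 scale and did not pass (adjusted p 0.0961). Its level was nevertheless higher in every MMSET-Ikk2ca library (63.9 to 90.9 CPM) than in any Control(M) library (37.7 to 59.6). Irf7 overlaps Phrf1 on the other strand and Irf9 overlaps Rnf31, and no use of strand is stated, so reads of these pairs may be mixed.

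Of the sensors, Ifi211, a member of the PYHIN family of DNA-binding proteins (chr1:173896345-173913046, with Mndal overlapping it), shared the smallest adjusted p of the set with Lgals3bp. It had 44.2, 33.7, 48.0 and 41.1 CPM in Control(M) and a lowest of 208, a median of 326 and a highest of 377 in MMSET-Ikk2ca (log2 change 2.85 ± 0.269 SE, adjusted p 5.52e-06). The groups did not overlap. Zbp1 had 56.1, 98.5, 49.6 and 43.1 CPM in Control(M) and a lowest of 78.1, a median of 108 and a highest of 135 in MMSET-Ikk2ca, with replicates 5 and 6 below the highest control (log2 change 0.79 ± 0.217 SE, adjusted p 0.0333). Dhx58, the LGP2 protein that tunes the RNA sensors, had 4.35, 3.48, 2.17 and 1.87 CPM in Control(M) and a lowest of 4.39, a median of 8.29 and a highest of 15.9 in MMSET-Ikk2ca (log2 change 1.63 ± 0.471 SE, adjusted p 0.0422). The other RNA sensors did not pass: Ifih1 (MDA5) gave 3.02 with an adjusted p of 0.17, Eif2ak2 (PKR) 0.65, and Ddx58 (RIG-I) -0.07. Ifih1 was nevertheless higher in every double transgenic library (2.64 to 8.32 CPM) than in any control (0 to 1.63).

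The 5 effector genes that rose were Ifitm3, Isg20 and Bst2, which the controls expressed well, and Ifi44 and Mx2, which they barely expressed. Ifitm3, which blocks fusion of enveloped viruses in endosomes (chr7:141009586-141010770), stood at 17.7, 29.1, 16.7 and 17.7 CPM in Control(M). In MMSET-Ikk2ca it had a lowest of 58.6, a median of 102 and a highest of 173 CPM, with no overlap (log2 change 2.38 ± 0.314 SE, adjusted p 0.000174). Isg20 had 85.8, 112, 83.1 and 144 CPM in Control(M) and a lowest of 226, a median of 235 and a highest of 252 in MMSET-Ikk2ca, again without overlap (log2 change 1.15 ± 0.192 SE, adjusted p 0.0012). Bst2 had 52.6, 80.9, 32.2 and 34.5 CPM in Control(M) and a lowest of 66.6, a median of 116 and a highest of 143 in MMSET-Ikk2ca, where replicate 4 lay inside the control range (log2 change 1.14 ± 0.257 SE, adjusted p 0.0109). Ifi44, an interferon-induced protein of microtubule-like aggregates, had 0.0155, 0.113, 0.0162 and 0 CPM in Control(M), 9 reads in all. In MMSET-Ikk2ca it had a lowest of 11.7, a median of 18.3 and a highest of 32.6 CPM (log2 change 9.04 ± 1.36 SE, adjusted p 0.000794). Without Control(M) replicate 2, its highest control, the log2 change was 10.65. Mx2, annotated as a polymorphic pseudogene, had 1118 reads over the 6 double transgenic libraries and 0 over the controls, at least 207-fold higher at a floor of 3 reads over the group (adjusted p 0.0198).

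The other 13 effectors did not pass, although 12 of them had a positive fold change. Rsad2 missed the threshold with an adjusted p of 0.0568, being at 3.97, 3.29, 4.52, 0, 0 and 0.477 CPM in the 6 libraries of MMSET-Ikk2ca and at 0 in the controls. Ifit1 and Ifit2, which bind foreign RNA ends, were at 3.52 to 13.8 and 1.81 to 10.8 CPM in MMSET-Ikk2ca, above every control library, with adjusted p of 0.0947 and 0.252. Ifit3 cannot be separated with confidence from its near-identical copy Ifit3b, nor Oas1a from its Oas1 relatives. Samd9l, a suppressor of cell growth, was the 1 effector with a negative value, -2.66 (adjusted p 0.385). The 21 genes that passed no threshold here ranged from -2.66 to 4.51 on the log2 scale, leaving out Rsad2. The 3 most abundant of these were Irf1 at 74.0 ± 9.66 CPM (mean ± SD), Sp100 at 50.3 ± 14.2 and Trim25 at 41.01 ± 15.9 in MMSET-Ikk2ca, against 50.9 ± 9.76, 40.3 ± 11.5 and 26.7 ± 15.3 in Control(M).

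In the ISG15 system the modifier and its protease rose. Isg15, the ubiquitin-like modifier itself (chr4:156199424-156200818), had 2.22, 4.72, 2.35 and 3.81 CPM in Control(M) and a lowest of 5.90, a median of 21.8 and a highest of 33.3 in MMSET-Ikk2ca, without overlap (log2 change 2.59 ± 0.614 SE, adjusted p 0.0153). Usp18, which removes ISG15 from proteins and damps the type I receptor (chr6:121245906-121270917), had 1.15, 0.789, 2.19 and 0 CPM in Control(M) and a lowest of 4.905, a median of 19.0 and a highest of 35.1 in MMSET-Ikk2ca, also without overlap (log2 change 4.10 ± 1.07 SE, adjusted p 0.0289). Without Control(M) replicate 3 its log2 change was 4.78. Herc6, the ISG15 ligase of mice, gave 0.99 and did not pass (adjusted p 0.0806). Parp9 and Dtx3l, partners in an ADP-ribosylating ubiquitin ligase, lie on opposite strands and overlap, so their reads may be mixed. Parp9 had 7.47, 6.50, 9.87 and 5.61 CPM in Control(M) and a lowest of 5.85, a median of 27.1 and a highest of 33.1 in MMSET-Ikk2ca (log2 change 1.69 ± 0.347 SE, adjusted p 0.00591). Dtx3l had 16.2, 22.5, 6.42 and 4.49 CPM and a lowest of 22.5, a median of 41.1 and a highest of 58.7 (log2 change 1.72 ± 0.381 SE, adjusted p 0.00969). In Parp9 only replicate 4 fell inside the control range, and in Dtx3l only replicate 5 was level with the highest control, at 22.5 CPM. Parp14, a mono-ADP-ribosyltransferase, rose as well (log2 change 1.321 ± 0.361 SE, adjusted p 0.0329).

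Among the remaining genes, Lgals3bp, a secreted galectin-binding glycoprotein (chr11:118392751-118402092), rose about as strongly as Cxcl10. It had 53.2, 75.7, 30.3 and 33.5 CPM in Control(M) and a lowest of 359, a median of 516 and a highest of 619.5 in MMSET-Ikk2ca, without overlap (log2 change 3.34 ± 0.316 SE, adjusted p 5.52e-06). Xaf1, an inhibitor of the anti-apoptotic protein XIAP, had 3.54, 10.4, 4.75 and 4.27 CPM in Control(M) and a lowest of 11.5, a median of 30.6 and a highest of 40.0 in MMSET-Ikk2ca, also without overlap (log2 change 2.26 ± 0.363 SE, adjusted p 0.000873). Cxcl10, a chemokine for activated T cells, had 0.789 to 5.04 CPM in Control(M) and 11.9 to 40.5 in MMSET-Ikk2ca (log2 change 3.34 ± 0.851 SE, adjusted p 0.0255), and the log2 change was 3.96 without Control(M) replicate 3. Ifi35, which binds the STAT-interacting protein NMI, passed with 0.99 (adjusted p 0.0227). Rtp4 and Sp100 did not pass, although Rtp4 was higher in every double transgenic library (2.23 to 13.5 CPM) than in any control (0 to 1.21).

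**Figure D2:**
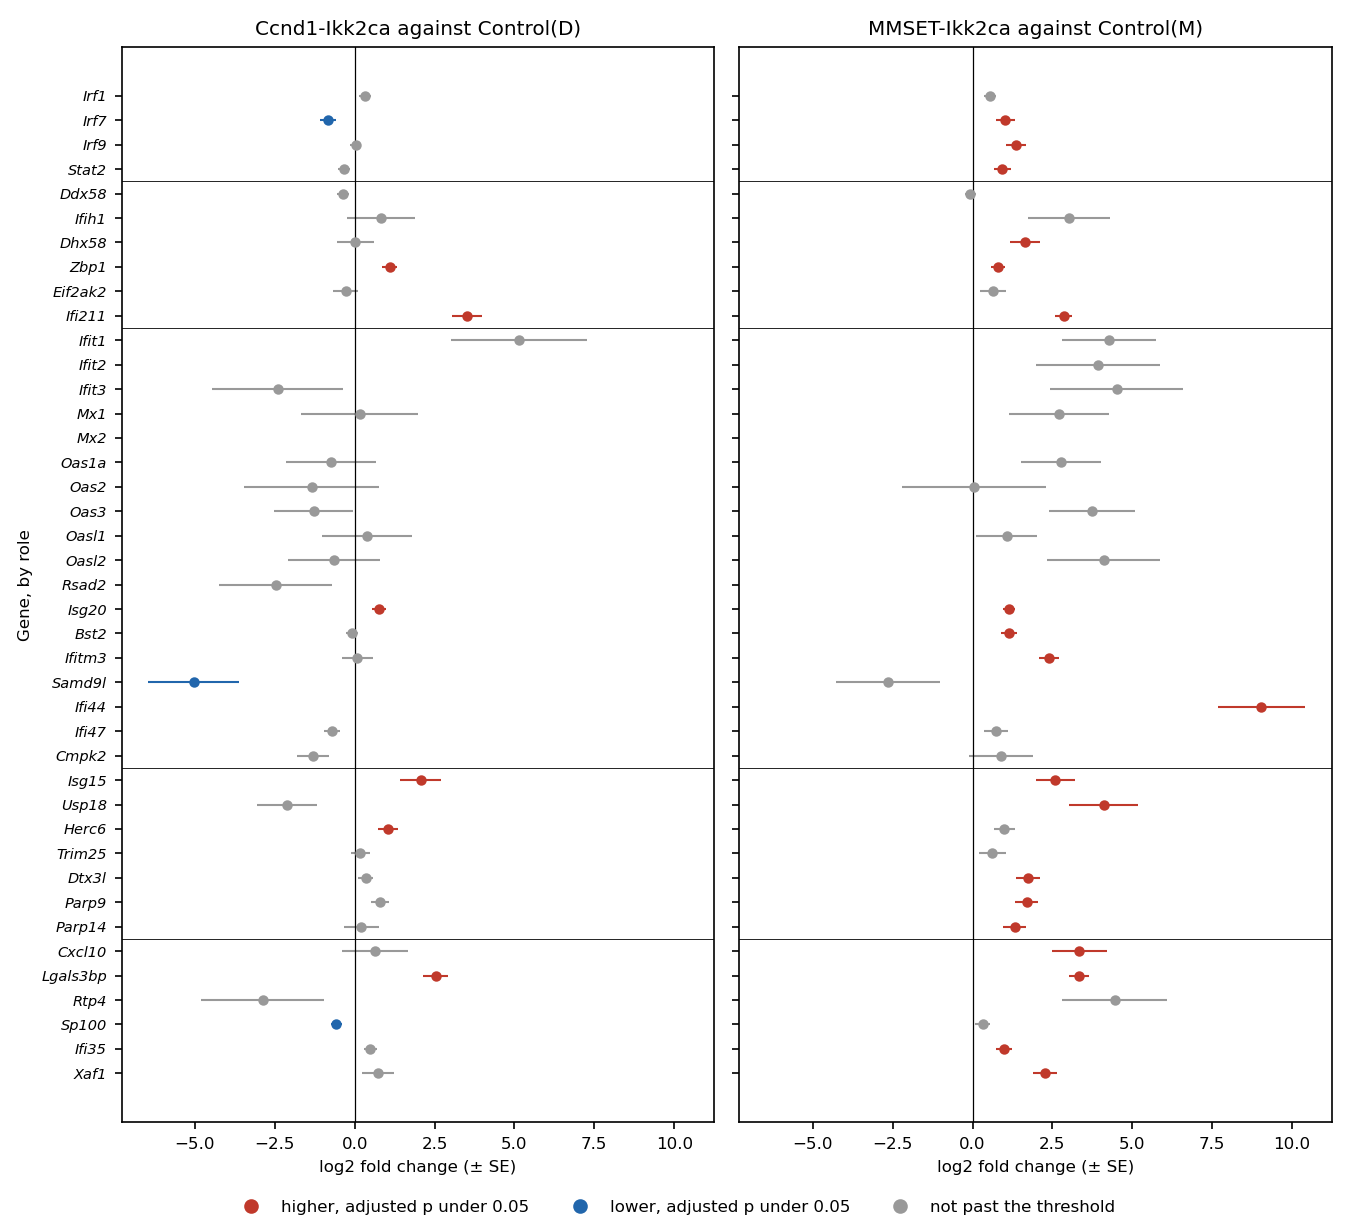
Points are log2 fold changes and bars their standard errors for the genes tested in each double transgenic group, in rows ordered by role. Ifi44 at left and Mx2 and Rsad2 at right are left out because a control group had 0 reads, and Ifit2 and Mx2 were not tested at left. On the right 19 points are red and none is blue, and on the left 6 are red and 3 blue.

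With each of the 18 libraries of cohort M left out in turn, 10 of the 20 genes always passed: Ifi211, Lgals3bp, Ifitm3, Ifi44, Xaf1, Isg20, Parp9, Dtx3l, Bst2 and Mx2. The count ranged from 11, without Control(M) replicate 1, to 22. Without that control Irf9 (adjusted p 0.0502), Isg15 (0.0535), Ifi35 (0.0606), Cxcl10 (0.0771) and Usp18 (0.0765) were among those that missed the threshold. Isg15 was also lost without Control(M) replicate 3 (0.0566), Ifi35 without Control(M) replicate 4 (0.0664), Cxcl10 without Control(M) replicate 2 (0.0696) or 4 (0.062), and Usp18 without Control(M) replicate 2 (0.0777) or MMSET-Ikk2ca replicate 2 (0.0503). Zbp1, Parp14, Stat2, Dhx58 and Irf7 were lost in 6, 7, 10, 11 and 14 of 18 leave-outs. The largest adjusted p was 0.111 for Zbp1 (without Control(M) replicate 4), and without Control(M) replicate 3 it was 0.104 for Parp14, 0.113 for Stat2, 0.118 for Dhx58 and 0.147 for Irf7.

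The 6 MMSET-Ikk2ca libraries were not alike. The mean of the 41 genes was 4.31, 4.50, 4.11, 3.15, 2.82 and 4.28 log2 CPM in replicates 1 to 6, against 0.82 to 1.83 in Control(M). Replicates 4 and 5 held the lowest value of the group for 15 and 19 of the 41 genes. Replicates 2 and 6 held the highest for 14 and 12. Xist stood at 4.31, 0.292, 1.40, 92.5, 74.5 and 16.7 CPM in the same order, so the 3 libraries at or below 10 CPM were among the 4 with high values. Replicate 6, the other of these 4, was classed with replicates 4 and 5 at 16.7 CPM. Every other library of the series above 10 CPM stood at 54.9 CPM or more. The Xist class therefore does not split the 4 libraries with high values from replicates 4 and 5. With the Xist class as a covariate 18 genes passed, and Dhx58 (adjusted p 0.0564) and Irf7 (0.0546) did not. In fits chosen after the data were seen, 13 genes passed among the libraries at or below 10 CPM of Xist, 3 against 2 controls, and 5 among those above it, also 3 against 2. Ifi211, Lgals3bp and Ifitm3 passed in both. The part of the Xist class in the differences between these 6 libraries was not tested beyond these values.

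**Figure D3:**
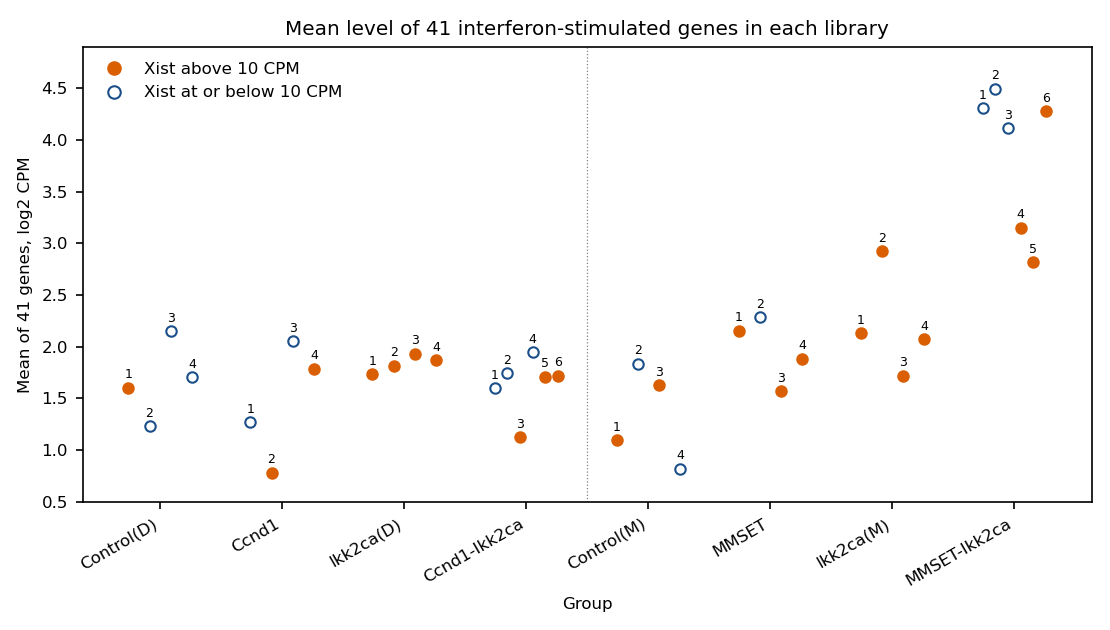
Each point is the mean log2 CPM of the 41 genes in 1 library, with its replicate number above it and the Xist class by colour. All 6 MMSET-Ikk2ca libraries, from 2.82 to 4.50, are above the Control(M) range of 0.82 to 1.83, while the 6 Ccnd1-Ikk2ca libraries lie between 1.13 and 1.95.

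Markers of cells that make or answer interferon gave mixed values. The 6 markers of plasmacytoid dendritic cells, the main producers of interferon alpha, summed to 15.4 to 20.7 CPM in Control(M) and 9.07 to 34.3 in MMSET-Ikk2ca. The upper part came from Cox6a2 (33.9, 32.5, 32.9, 22.5, 9.07 and 26.9 CPM by replicate), whereas Siglech was at most 0.824, Ccr9 at most 0.331 and Klk1 at 0 in those libraries. Of the 4 tested, Cox6a2 rose and Ccr9 fell. Monocyte and macrophage markers summed to 97.7 to 138 CPM in Control(M) and 37.2 to 71.0 in MMSET-Ikk2ca. One of the 8, C1qb, rose and 1, Lyz2, fell. Neutrophil markers summed to 39.4 to 183 CPM in Control(M) and 0.744 to 11.6 in MMSET-Ikk2ca, and T and NK cell markers to 1.304 to 12.5 and 0.0146 to 1.62. B cell markers summed to 157 to 424 CPM and 65.5 to 132. Of the plasma cell markers 4 of 8 fell (Xbp1, Tnfrsf17, Mzb1 and Jchain), and Jchain stood at 27339 to 37005 CPM in Control(M) and 1243 to 4072 in MMSET-Ikk2ca. The part of any of these in the interferon-stimulated genes was not tested.

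The signalling genes around the set were read from a second list of 58, of which 48 were tested in cohort M. In MMSET-Ikk2ca 10 rose and 1, Pias1, which inhibits activated STAT proteins, fell (background 3.5% and 3.41%). No ligand was measurable: Ifnb1 and Ifng had 0 reads in all 36 libraries, and Ifna4 had reads in 1 MMSET-Ikk2ca library, at 0.209 CPM. Of the 6 receptor chains, Ifngr2, for interferon gamma, rose, with 9.97 to 15.9 CPM in Control(M) and 25.4 to 37.6 in MMSET-Ikk2ca (log2 change 1.40 ± 0.220 SE, adjusted p 0.000774). Ifnar1, for type I interferon, also rose, with 28.4 to 41.6 CPM in Control(M) and 39.3 to 65.4 in MMSET-Ikk2ca (log2 change 0.62 ± 0.174 SE, adjusted p 0.0354). Tyk2 (1.12), Irf5 (0.78) and Adar (1.24), an RNA editing enzyme, also rose. Ikbke, a kinase that activates IRF3 and also an NF-kB target, rose, with 0.308 to 3.28 CPM in Control(M) and 22.5 to 36.9 in MMSET-Ikk2ca (log2 change 3.71 ± 0.481 SE, adjusted p 0.000154). Ifi204, a PYHIN neighbour of Ifi211, rose, with 1.26 to 6.02 CPM in Control(M) and 43.7 to 156 in MMSET-Ikk2ca (log2 change 4.74 ± 0.684 SE, adjusted p 0.000738), and reads within this family may be shared.

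Against Ikk2ca(M), the group that lacks the MMSET transgene, MMSET-Ikk2ca was higher in 4 of 41 genes and lower in none (background 0.428% higher and 0.532% lower, 0.96% in all). Ifitm3 was at 21.3, 24.7, 13.3 and 16.0 CPM in Ikk2ca(M), within the Control(M) range but for 2 lower and no higher libraries, and differed from MMSET-Ikk2ca with log2 change 2.49 ± 0.316 SE, adjusted p 0.000404. Ifi44 stood at 0, 0.728, 0.0157 and 0.0257 CPM in Ikk2ca(M) (log2 change 6.69 ± 1.18 SE, adjusted p 0.00929). Xaf1 stood at 10.01, 10.4, 8.53 and 6.59 CPM (log2 change 1.64 ± 0.351 SE, adjusted p 0.0257) and Irf7 at 17.2, 23.9, 11.1 and 11.1 (log2 change 1.46 ± 0.313 SE, adjusted p 0.0258). The median over the 41 genes was 1.08 against 0.02 over all genes, and 13 of 41 did not overlap (background 2.27%). Ifitm3 and Ifi44 passed in all 18 leave-outs, but the log2 change of Ifi44 was 10.28 without Ikk2ca(M) replicate 2 and at its lowest 6.28, without Ikk2ca(M) replicate 1. Xaf1 was lost in 8, up to an adjusted p of 0.104 without Ikk2ca(M) replicate 4, and Irf7 in 7, up to 0.106 without the same library. The count was 7 without MMSET replicate 1 and 2 without Ikk2ca(M) replicate 1, 3 or 4 or MMSET-Ikk2ca replicate 1, 2, 3 or 6. All Ikk2ca(M) libraries were above 10 CPM of Xist, and with the Xist class as a covariate 2 genes passed, Irf7 (0.122) and Xaf1 (0.119) being lost. DESeq2 called 15.

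In MMSET alone, 4 of 41 genes rose and none fell (background 0.474% and 0.175%). Ifi211 stood at 82.4, 122, 174 and 66.0 CPM in MMSET, above all controls (log2 change 1.41 ± 0.267 SE, adjusted p 0.0156). Zbp1 stood at 118, 166, 164 and 136 CPM, also above all controls and above its median of 108 in MMSET-Ikk2ca (log2 change 1.23 ± 0.235 SE, adjusted p 0.016). Ifi44 stood at 1.02, 5.63, 4.97 and 10.5 CPM, where Control(M) had 9 reads (log2 change 7.19 ± 1.31 SE, adjusted p 0.0156), and the log2 change was 8.80 without Control(M) replicate 2. Lgals3bp stood at 66.2, 162, 109.7 and 200.1 CPM, with replicate 1 inside the control range (log2 change 1.47 ± 0.305 SE, adjusted p 0.0273). The other 37 ranged from -1.70 (Cmpk2) to 2.55 (Oasl2) on the log2 scale, leaving out Mx2 and Rsad2, and the median of all 41 was 0.42, or 0.30 with these 2 at their bounds. None of the 58 pathway genes passed by edgeR, with 12 of the 48 tested at an unadjusted p under 0.05. Leaving out MMSET replicate 1, the library with the highest summed neutrophil marker level, left the count at 4. Every MMSET library was above every control for 5 of 41 genes and below for none (background 3.13% and 2.94%). The count of calls was 0 without Control(M) replicate 4, 1 without Control(M) replicate 1 or 3 or MMSET replicate 3, and 2 without MMSET replicate 2. Ifi211 was lost without Control(M) replicate 4 (adjusted p 0.0519) or MMSET replicate 3 (0.0531), Ifi44 without Control(M) replicate 1 (0.0578), 3 (0.0721) or 4 (0.0613), Zbp1 in 5 leave-outs and Lgals3bp in 6, up to 0.0721 and 0.102 without Control(M) replicate 3. C1qb, a macrophage marker, rose in this group (10.4 to 61.2 CPM against 2.71 to 5.20). It was the only 1 of the 8 monocyte and macrophage markers that passed. These markers summed to 71.2 to 842 CPM in MMSET, against 97.7 to 138 in Control(M). Only MMSET replicate 1, at 842 CPM, was above the control range. The part of C1qb or of the other markers was not tested.

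In Ikk2ca(M) 2 of 41 genes rose and none fell (background 0.506% and 0.143%). Ifi211 stood at 191, 218, 283 and 201 CPM (log2 change 2.41 ± 0.275 SE, adjusted p 0.000278) and Lgals3bp at 239, 253, 275 and 198 (log2 change 2.32 ± 0.313 SE, adjusted p 0.000818). Every library of Ikk2ca(M) was above every control for both, and both passed in all 18 leave-outs. In all, every library was above every control for 4 of 41 genes, against 4.44% of all genes, and below for 1, Samd9l, against 3.51%. The other 39 ranged from -4.21 (Ifit2) to 3.19 (Ifit1), leaving out Mx2, Oas2 and Rsad2, each with 0 reads in 1 of the groups, and the median of the 41 was 0.44. Of the pathway genes Ikbke rose to 26.2, 26.3, 44.1 and 15.4 CPM (log2 change 3.67 ± 0.495 SE, adjusted p 0.000818) and Tyk2 to 93.0 to 147 CPM (log2 change 1.09 ± 0.224 SE, adjusted p 0.0251). Irf8, a factor of B cells and dendritic cells, fell, with 25.996 to 83.4 CPM in Control(M) and 10.7 to 15.7 in Ikk2ca(M) (log2 change -2.06 ± 0.435 SE, adjusted p 0.033). All 4 Ikk2ca(M) libraries and 2 controls were above 10 CPM of Xist, and within this class 3 of the 41 genes passed. The count was 4 without Control(M) replicate 2.

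**Figure D4:**
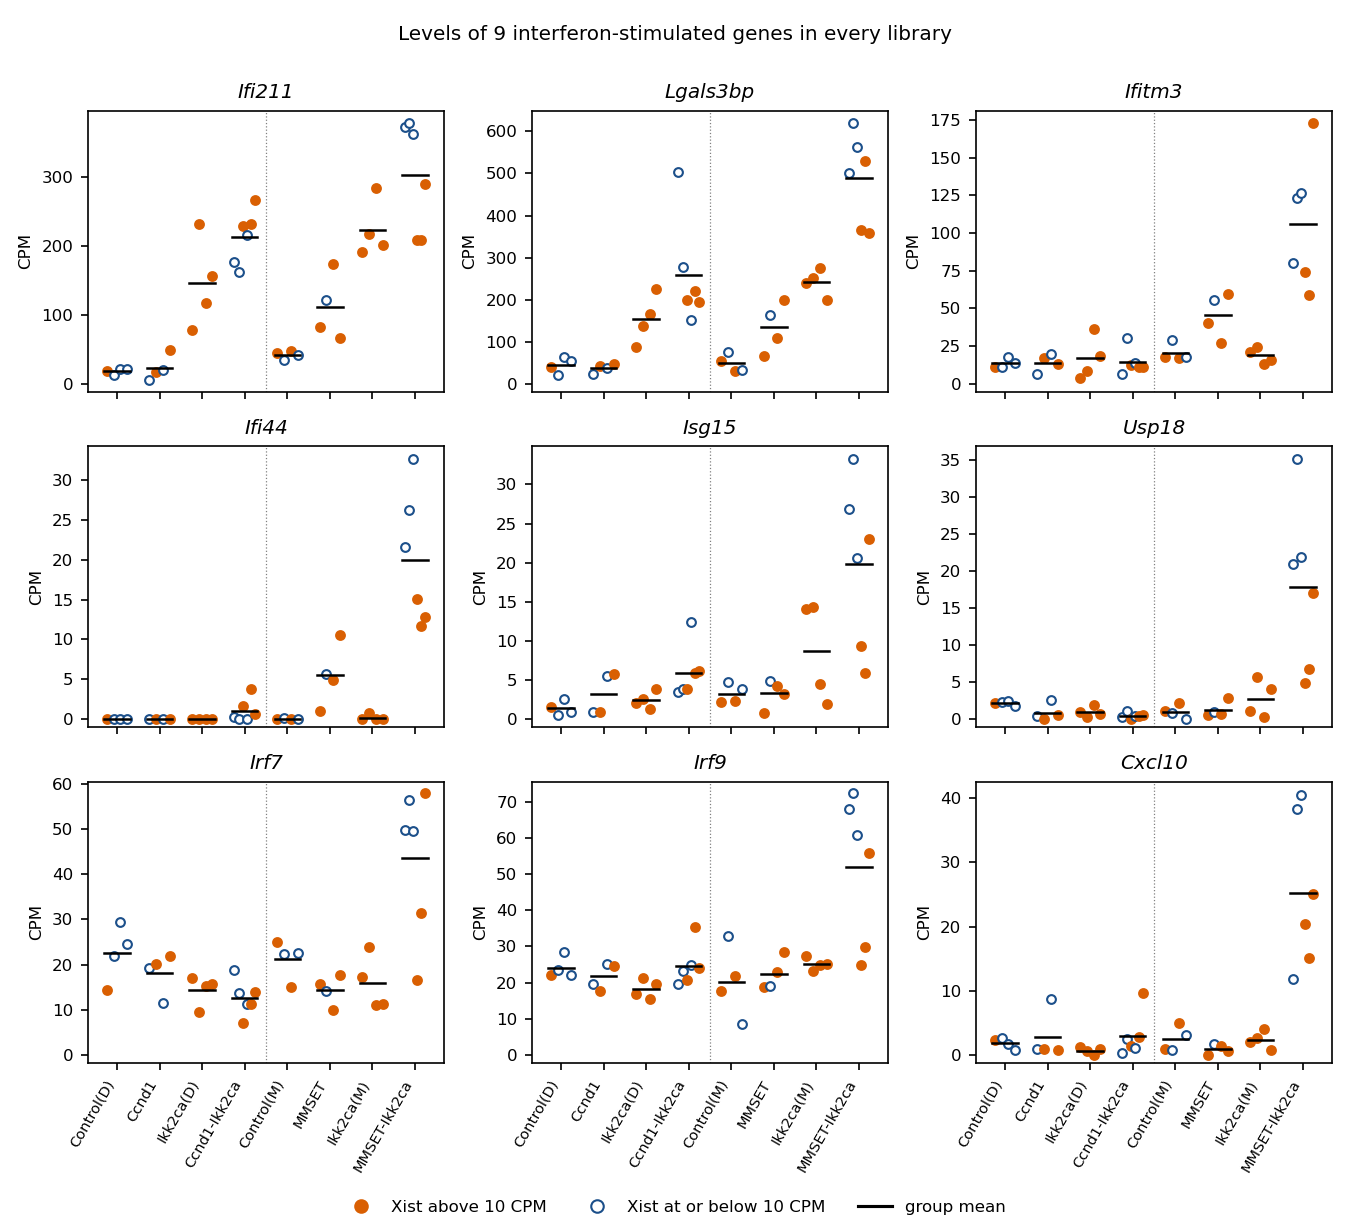
Points are the CPM of 1 gene in 1 library, filled where Xist was above 10 CPM, and lines are group means. Ifi211 and Lgals3bp are higher in every Ikk2ca(M) and every double transgenic library than in the controls of the same cohort, whereas Usp18, Irf7, Irf9 and Cxcl10 have the highest of their 8 group means in MMSET-Ikk2ca.

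In cohort D, Ccnd1-Ikk2ca gave 7 higher and 3 lower genes of 39 tested against Control(D) (background 5.83% higher and 5.32% lower, 11.1% in all), and Ifit2 and Mx2 were not tested. The median of the 39 was 0.08 against 0.02 over all genes, and 22 of 39 were positive. All 6 libraries were above all controls for 5 genes, against 6.9% of all genes. Ifi211 had 19.1, 12.5, 21.3 and 20.9 CPM in Control(D) and a lowest of 162, a median of 221 and a highest of 266 in Ccnd1-Ikk2ca, without overlap (log2 change 3.53 ± 0.468 SE, adjusted p 0.00023). Lgals3bp had 39.4, 20.3, 64.0 and 54.0 CPM in Control(D) and a lowest of 152, a median of 211 and a highest of 504 in Ccnd1-Ikk2ca (log2 change 2.54 ± 0.391 SE, adjusted p 0.000706). Its highest value, in replicate 1, stood apart from the other 5 libraries, and all 6 were above the controls. Zbp1 had 35.6, 30.1, 40.6 and 34.0 CPM in Control(D) and a lowest of 56.8, a median of 77.5 and a highest of 89.3 in Ccnd1-Ikk2ca, without overlap (log2 change 1.10 ± 0.234 SE, adjusted p 0.0057).

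The other 4 genes that rose in Ccnd1-Ikk2ca had larger adjusted p-values. Isg20 had 65.8, 47.7, 64.4 and 79.6 CPM in Control(D) and a lowest of 75.9, a median of 106 and a highest of 149 in Ccnd1-Ikk2ca, with overlap (log2 change 0.75 ± 0.219 SE, adjusted p 0.032). Isg15 had 1.59, 0.591, 2.62 and 0.909 CPM and a lowest of 3.51, a median of 4.91 and a highest of 12.4, without overlap (log2 change 2.06 ± 0.630 SE, adjusted p 0.0405). Herc6 had 5.52, 6.04, 6.92 and 5.06 CPM and a lowest of 7.66, a median of 11.5 and a highest of 16.6, without overlap (log2 change 1.04 ± 0.320 SE, adjusted p 0.0407). Ifi44 had 0 reads in Control(D) and 495 in Ccnd1-Ikk2ca, at least 95.5-fold higher at a floor of 3 reads over the group (adjusted p 0.0442). These reads were uneven: 2 of the 6 libraries had none and replicate 5 had 3.76 CPM.

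Of the 10 genes, 3 fell in Ccnd1-Ikk2ca. Irf7 had 14.4, 22.0, 29.4 and 24.6 CPM in Control(D) and a lowest of 7.02, a median of 12.5 and a highest of 18.7 in Ccnd1-Ikk2ca, with overlap (log2 change -0.84 ± 0.257 SE, adjusted p 0.0409). Sp100, a nuclear body protein, had 30.4, 32.9, 56.0 and 36.1 CPM and a lowest of 22.4, a median of 25.9 and a highest of 31.5, where only replicate 5 reached into the control range (log2 change -0.57 ± 0.160 SE, adjusted p 0.0263). Samd9l had 7.08, 9.56, 0.592 and 11.8 CPM and a lowest of 0, a median of 0.0138 and a highest of 0.842, with 1 control near the double transgenic level (log2 change -5.04 ± 1.41 SE, adjusted p 0.0268). Without Ccnd1-Ikk2ca replicate 4 its log2 change was -6.24. Cmpk2 and Usp18 were below every control in all 6 libraries and did not pass (adjusted p 0.0937 and 0.161), and over all genes 5.89% did not overlap in this direction. The 29 genes that did not pass ranged from -2.88 (Rtp4) to 5.13 (Ifit1), and the most abundant of them were Irf1 at 76.7 ± 19.3 CPM, Bst2 at 66.7 ± 12.3 and Trim25 at 42.3 ± 16.7.

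Most calls in Ccnd1-Ikk2ca were lost when 1 of several libraries was left out, with the direction kept. Ifi44 was lost also without each of Ccnd1 replicates 1 to 4 in turn (adjusted p 0.0531 to 0.0741), which are outside the comparison. The log2 change of Herc6 stayed at 0.93 to 1.15, while that of Sp100 ran from -0.67 to -0.34. Ifi211, Lgals3bp and Zbp1 passed in all 18 leave-outs, while the count fell to 4 without Control(D) replicate 2, to 5 without Control(D) replicate 1 or 4, and to 6 without Control(D) replicate 3 or Ccnd1-Ikk2ca replicate 5. Samd9l was lost without Control(D) replicate 1 (adjusted p 0.05), 2 (0.0597) or 4 (0.0607), and Sp100 without Control(D) replicate 3 (0.155) or Ccnd1-Ikk2ca replicate 3 (0.0576). Isg20, Isg15, Herc6, Ifi44 and Irf7 were lost in 5, 6, 8, 8 and 9 leave-outs, up to 0.117 and 0.12 (both without Control(D) replicate 2), 0.101 (Control(D) replicate 4), 0.0981 (Control(D) replicate 2) and 0.142 (Control(D) replicate 3). Ifi44 was tested in 14 of the 18 leave-outs, so its call held in 6. With the Xist class as a covariate 4 genes passed, Ifi211, Lgals3bp, Zbp1 and Samd9l. In fits chosen after the data were seen, 0 passed among libraries above 10 CPM of Xist, where 1 control remained, and 3 among the rest. Neutrophil markers summed to 39.3 to 486 CPM in Control(D) and 1.22 to 198 in Ccnd1-Ikk2ca, and B cell markers to 107 to 209 and 44.7 to 61.8. Plasma cell markers summed to 54145 to 99913 CPM and 7523 to 19494, and 4 of 8 fell (Tnfrsf13b, Tnfrsf17, Mzb1 and Jchain). The part of any of these markers was not tested.

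Pathway genes moved in both directions in Ccnd1-Ikk2ca, with 12 of 45 tested higher and 5 lower (background 5.83% and 5.32%). Irf8 fell, with 55.7 to 74.6 CPM in Control(D) and 6.67 to 22.6 in Ccnd1-Ikk2ca (log2 change -2.44 ± 0.401 SE, adjusted p 0.0012), and Irf2bp2, a corepressor of IRF2, fell with log2 change -2.66 ± 0.455 SE, adjusted p 0.00121. The receptor chains Ifnar1 (1.08) and Il10rb (0.76) and the kinases Tyk2 (1.08) and Jak2 (1.77) rose. Ikbke rose, with 2.53 to 8.99 CPM in Control(D) and 10.7 to 39.1 in Ccnd1-Ikk2ca (log2 change 2.18 ± 0.445 SE, adjusted p 0.00429), as did Trex1, a DNase that clears cytosolic DNA (log2 change 0.82 ± 0.169 SE, adjusted p 0.00446). The 9 ligand genes were too low to be tested in either cohort.

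Of the single transgenes in cohort D, Ikk2ca(D) had a rise of Ifi211, and no other member passed (1 of 39, background 0.398% higher and 0.0392% lower). Ifi211 stood at 78.3, 232, 116 and 156 CPM there, above every control (log2 change 2.98 ± 0.472 SE, adjusted p 0.00923). The call was lost without Control(D) replicate 2 (2.83 on the log2 scale, adjusted p 0.0525) and with the Xist class as a covariate (2.50, 0.109). In a fit chosen after the data were seen, among libraries above 10 CPM of Xist, the log2 change was 2.93, with 1 control left. All 4 Ikk2ca(D) libraries and 1 of 4 controls were above 10 CPM of Xist, and the part of this class was not tested further. Lgals3bp, at 86.5, 137, 166 and 224 CPM and also above every control, missed the threshold (log2 change 1.79 ± 0.398 SE, adjusted p 0.0585). The other members that did not pass ranged from -4.06 (Samd9l) to 6.35 (Ifit1), leaving out Ifi44. In 5 of 39 genes all Ikk2ca(D) libraries were above all controls, against 4.18% of all genes, and in 2, Irf9 and Sp100, below all controls, against 3.46%. Ikbke was the 1 pathway gene that passed (log2 change 2.55 ± 0.474 SE, adjusted p 0.0191). Without Ccnd1 replicate 1, Ikk2ca(D) replicate 1 or Ccnd1-Ikk2ca replicate 1 the count was 2.

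Ccnd1 alone moved none of the 39 genes tested by edgeR (background 0.00653%), with 2 at an unadjusted p under 0.05, Ddx58 and Zbp1, and DESeq2 called 0. All Ccnd1 libraries were above all controls for none of the 39 and below for Ddx58 (background 1.57% and 1.36%). Adding Ccnd1 to Ikk2ca(D) also gave 0 by edgeR (background 0.0522% higher and 0.372% lower), with 6 unadjusted and 1 by DESeq2, and no member separated these groups completely (background 1.47% above and 1.44% below). Between the control groups of the cohorts edgeR called 0 of 41 (background 0.0409%), with 6 unadjusted and 1 by DESeq2, and Ifi211, Isg20 and Zbp1 were higher in every Control(M) library than in any Control(D) library, and Ifi47 lower (background 2.23% and 2.28%). Comparisons with a control were made within each cohort. The effect of Ikk2ca differed between the cohorts for 0 of 41 genes by edgeR (background 0%), with 4 unadjusted and 2 by DESeq2.

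The difference between the effects of the double transgenic groups was tested as such, in 1 fit of all 36 libraries and 17116 genes. The Ccnd1-Ikk2ca effect was below the MMSET-Ikk2ca effect for 2 of 41 genes, Irf7 and Usp18, and above it for none (background 0.0584% and 0.117%). Irf7 differed by -1.87 (SE 0.41, adjusted p 0.0391): it fell in Ccnd1-Ikk2ca and rose in MMSET-Ikk2ca. Usp18 differed by -6.23 (SE 1.36, adjusted p 0.0391), from levels of 2.22, 2.31, 2.49 and 1.74 CPM in Control(D) and a lowest of 0.0579, a median of 0.442 and a highest of 1.17 in Ccnd1-Ikk2ca. At an unadjusted p under 0.05 there were 20 of 41, and DESeq2 called 8, all lower. The median difference over the 41 was -1.38 against 0.05 over all genes, and 5 of 41 were positive. Neither call was stable: each was lost in 16 of 36 leave-outs, up to an adjusted p of 0.105 for Irf7 (without Control(M) replicate 3) and 0.112 for Usp18 (without Control(M) replicate 2), and with the Xist class as a covariate (0.0621 and 0.0764). The Usp18 difference was -6.91 without Control(M) replicate 3. Beyond these 2, a difference between the double transgenic groups in single genes of the set was not detected by edgeR at this number of libraries.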

How the data were processed

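RNA of 36 sorted samples was primed with oligo-dT, amplified after template switching and cut with Tn5, per the labels' protocols. Per the submitters' processing notes, the authors used bcl2fastq 2.20.0.422, Salmon 1.3.0 on GRCm38 and DESeq2 1.32.0; Salmon's transcript annotation is not given in the sources used here. The deposited tables hold estimated counts (not whole numbers) and TPM, scaled by the authors' run within each library, for 140825 transcripts, with 2 lengths, per the file headers. Strand was not used here and the labels name no molecular identifiers, so PCR copies remain in the counts.

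Estimated counts were summed to genes with GENCODE mouse release 21 (139960 transcripts matched; the other 865 held 0.0636% to 0.134% of reads) and rounded. Genes were tested in R 4.3.3 with edgeR 4.0.16 (TMM, filterByExpr, robust quasi-likelihood test, two-sided, Benjamini-Hochberg over all genes, threshold 0.05). One fit of 18 libraries per cohort held 15323 (D) or 15416 (M) genes, and a fit of all 36 served comparisons across cohorts. SE is the absolute log2 fold change over the square root of F. Log2 CPM used a prior count of 2. The test was also run on simulated counts, with changes set in genes with a mean above 2 CPM. Rarer genes were not covered, and the outcome is not given here.

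The members and lists were chosen with earlier results of these data known. Every member past the threshold was named, with library values for up to 10 per comparison with a control by adjusted p, and up to 8 pathway genes; a result that is withheld is not reported here. Alternatives were DESeq2 1.42.0, its size factors, omission of the low-count filter, omission of the immunoglobulin genes, the replicate number as a block, all 36 libraries in 1 fit, replicates 1 to 4 of the double transgenic groups, the Xist class (above 10 CPM) as a covariate and each library left out. Fits within an Xist class were added after the data were seen. Tables were made with pandas 2.3.3 and figures with matplotlib 3.10.9 in Python 3.11.15.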

Additional observations from a re-analysis of the deposited data

Results flagged for a closer look

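In 48 sets of values of 1 gene in 1 group, the highest or lowest library was compared with its nearest neighbour relative to the whole range. Ifi44 in Control(D), at 0 in every library, was among these sets and could not be compared. Chance flags about 1 in 20 such sets where values spread normally, and 4 were flagged. This rate need not hold for values near 0, as for Ifi44 in Control(M). Ifi44 stood at 0.113 CPM in Control(M) replicate 2, against at most 0.0162 in the other 3. Ifitm3 stood at 29.1 CPM in the same library, against at most 17.7. Isg15 stood at 12.4 CPM in Ccnd1-Ikk2ca replicate 4, against at most 6.17, and Lgals3bp at 504 CPM in Ccnd1-Ikk2ca replicate 1, against at most 277.

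The effects of the double transgenic groups differed by test for 2 genes. The Ccnd1-Ikk2ca effect minus the MMSET-Ikk2ca effect was -1.87 on the log2 scale for Irf7 and -6.23 for Usp18, both with an adjusted p of 0.0391 by edgeR.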

How the results depend on the processing

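Of the alternative values of the named genes, none reversed, 941 kept direction and call and 284 lost the call. Settings in which a gene was not tested are not counted, and leave-outs of libraries outside a comparison are. Ifi44 in Ccnd1-Ikk2ca against Control(D) had 22 values, 10 kept and 12 lost, where Ifi211 had 28. DESeq2 moved the counts of called members to 3 for Ikk2ca(D), 7 for MMSET and 4 for Ikk2ca(M) against control, 1 for Ccnd1-Ikk2ca against Ikk2ca(D), 15 for MMSET-Ikk2ca against Ikk2ca(M), 2 for the difference in Ikk2ca effects, 8 for the difference between double transgenic effects and 1 between controls. Without immunoglobulin genes, and with all 36 libraries in 1 fit, Ikk2ca(D) had 2, and the joint fit gave MMSET 1. Without the low-count filter Ccnd1-Ikk2ca had 4 and the double difference 1. With replicates 1 to 4 of the double groups, Ccnd1-Ikk2ca had 5, MMSET-Ikk2ca against Ikk2ca(M) 2 and the double difference 0. The Xist covariate gave Ikk2ca(D) 0, Ccnd1-Ikk2ca 4, MMSET-Ikk2ca against Ikk2ca(M) 2 and the double difference 0. Among libraries above 10 CPM of Xist the counts were 0 for Ikk2ca(D), Ccnd1-Ikk2ca, MMSET and the double difference, 5 for MMSET-Ikk2ca against Control(M) and 1 against Ikk2ca(M). At or below 10 CPM they were 3 for Ccnd1-Ikk2ca, 1 for MMSET, 13 for MMSET-Ikk2ca and 1 for the double difference. These 2 settings leave fewer libraries.

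With the replicate block, Ccnd1-Ikk2ca had 4 members called, the double difference 0, MMSET-Ikk2ca 18 and the other counts stayed within 1.5 times. Replicate numbers 5 and 6 occur only in the double transgenic groups, so each of their blocks held 1 library. Such a library does not inform a fold change in this setting, so a lower count need not come from pairing. Correlations of same-numbered deviations ran from -0.02 to 0.09 in cohort D and -0.04 to 0.11 in cohort M, with 1 of 24 pairs over 0.1 in the latter. Their medians were 0.012 and 0.030, against -0.004 and -0.005 for pairs with different numbers. The latter ran from -0.099 to 0.088 and from -0.18 to 0.099. Whether the numbers pair the samples is not given by the labels and cannot be told from these values.

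Leaving out 1 library gave 0 to 2 for Ikk2ca(D), 4 to 10 for Ccnd1-Ikk2ca, 0 to 6 for MMSET, 2 to 4 for Ikk2ca(M), 11 to 22 for MMSET-Ikk2ca against control, 2 to 7 against Ikk2ca(M) and 0 to 3 for the double difference; Ccnd1, Ccnd1-Ikk2ca against Ikk2ca(D), the Ikk2ca difference and the controls stayed at 0. A member at 0 reads in a library is limited to below 3 reads there, which covers counting error only.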
